A study of Mus musculus with 24 samples.

Results

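The response of Baf180 knockdown (KD) mouse myoblasts to copper (Cu) was measured by total RNA-seq, as the difference between 2 libraries of cells given 100 µM CuSO4 and 2 libraries of untreated (NT) cells, 4 of the 24 libraries of the series. Members were taken by the titles and the column names of the count table, because the treatment tag gives Cu for all 6 Baf180 KD libraries. The remaining 2 Baf180 KD libraries, given 50 µM ZnSO4, entered the same fit to share the estimate of the spread between replicates. Both metals were given for 48 h. In the methods the cells are C2C12, an established line of mouse myoblasts, while the labels call them primary myoblasts. All 6 libraries carry a short hairpin RNA against Baf180 (gene *Pbrm1*), delivered by lentivirus to a puromycin-selected population and not to a single clone, and the untreated cells carry it too. The other lines of the series carry a scrambled hairpin (scr) or hairpins against Baf250a or Brd9. Replicates are described as biologically independent, and each comparison rests on 2 libraries against 2.

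BAF180 is a subunit of PBAF, a form of the SWI/SNF machine that uses ATP to move nucleosomes and thereby opens or closes chromatin. Cu is a cofactor of respiration, of antioxidant enzymes and of the enzymes that crosslink collagen, and in excess it produces reactive oxygen species and binds protein thiols. Mammalian cells import it by the transporter CTR1 (*Slc31a1*), pass it between chaperones, and export it by the ATPase ATP7A. An excess of reactive metal is known to release the transcription factor NRF2 from its inhibitor KEAP1, upon which NRF2 binds antioxidant response elements (AREs) at genes for quinone reduction, glutathione and NADPH. The metal sensor MTF1 binds metal response elements (MREs), best known from the metallothionein genes, and is activated most directly by zinc (Zn).

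The 4 libraries held 22415542 to 33297041 counts. Levels are given below as CPM, counts scaled to a common library size over the 6 libraries, the Cu response is the log2 fold change of Cu over NT with its standard error (SE, n = 2 libraries per group), and a gene is said to have risen or fallen where edgeR's quasi-likelihood test gave a Benjamini-Hochberg adjusted p under 0.05 over the 15241 genes tested. *Pbrm1*, the targeted gene, stood between 42.2 and 75.7 CPM in the 6 Baf180 KD libraries and between 99.9 and 227 CPM in the 6 scr libraries, on a scale set over all 24 libraries. Within the KD it was lower with Cu, at 42.0 and 55.8 CPM against 65.9 and 78.4 CPM untreated (log2 fold change −0.56 ± 0.15, adjusted p = 0.0386), and this call was lost without Cu replicate 1 (−0.37, adjusted p = 0.245) and without untreated replicate 2 (−0.43, adjusted p = 0.259). The 8 myoblast markers summed to 2283 to 2384 CPM with Cu and 2274 to 2384 CPM untreated, and none of them was called as sequenced, while *Myod1* and *Msc* fell after the correction described below. The 8 markers of differentiated myotubes summed to 131 to 133 CPM with Cu and 165 to 177 CPM untreated, and 3 of them fell. Fibroblast markers summed to 41.6 to 45.9 CPM against 52.1 to 62.0 CPM, with *Thy1* at 0 and *Dcn* fallen. Macrophage markers summed to at most 6.01 CPM, with *Adgre1* at 0, and those of adipocytes, osteoblasts, endothelium and neurons to at most 2.42 CPM each. The part of these marker shifts in the responses below was not tested, and in bulk RNA fewer cells of a type and less RNA per cell cannot be told apart.

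Of the genes tested, 2097 (13.8%) were called with Cu, of which 832 (5.46%) rose and 1265 (8.3%) fell. Most changes were small: 161 of the risers and 601 of the fallers passed 1.5-fold, and 30 and 87 passed 2-fold. Fitted with all 24 libraries, 1036 genes rose and 923 fell, so that the risers were 52.9% of the calls in place of 39.7%. The direction followed base composition: among the 5037 genes lowest in GC content 34 rose and 1033 fell, and among the 5037 highest 546 rose and 55 fell. Slopes on GC content were fitted to each library's log2 deviation from the gene's mean over the 6 Baf180 KD libraries, over protein-coding genes. Their sign is thus relative to those 6 libraries. They were positive in both Cu libraries (0.21 and 0.059 log2 units per 10 percentage points) and negative in both NT libraries (−0.13 and −0.21). In the Zn libraries they were 0.12 and −0.044. This trend and the Cu treatment cannot be told apart. The counts of gene lists below are therefore also given after a correction of every library for its trend in GC content and transcript length. With it 932 genes were called (6.12%), 367 risers (2.41%) and 565 fallers (3.71%), and 700 genes were called in the same direction in both fits. The counts of list members below are to be read beside these shares and beside the 5.46% risers and 8.3% fallers as sequenced. Without Cu replicate 1 only 112 genes were called (51 rose, 61 fell), without untreated replicate 2 only 57 (18 rose, 39 fell), and without untreated replicate 1, 1296.

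**Figure D1:**
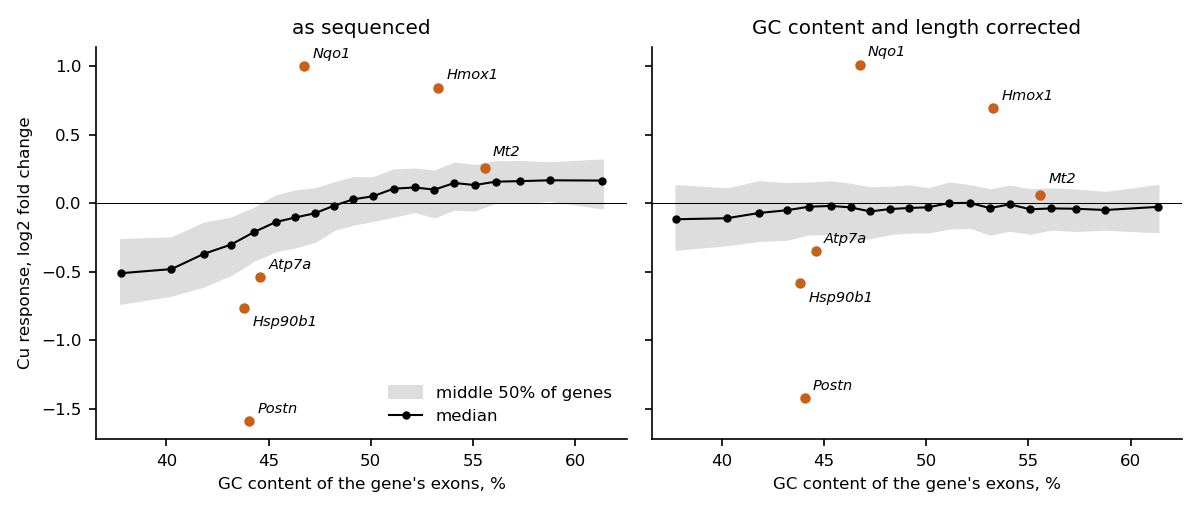
Median log2 fold change of Cu over NT (line) and its middle 50% of genes (band) in 20 bins of GC content, as sequenced and after correcting for GC content and length, with 6 genes named in the text as points. As sequenced the median goes from −0.51 in the bin lowest in GC content to 0.17 in the highest, and after the correction it is −0.12 and −0.03.

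The promoters that bear on the comparison of Cu and Zn are those of NRF2 targets and of the metallothioneins, shown here from RefSeq (GRCm38.p6) as 250 bases before and 30 bases after the annotated start of transcription, 5′ to 3′ along the gene. The letters searched, on either strand, were TGACNNNGC for the ARE core and TGCNCNC for the MRE core, with any base at N. The MRE letters are a loose form of the element, so a match to them was not shown to be a site of MTF1. Capitals mark the ARE core in the first 4 lines and the MRE core in the last 2, and leave unmarked the MRE cores that also lie in *Me1*, *G6pdx* and *Gclm* and the ARE core that also lies in *Mt2*. The first 4 lines are genes that rose with Cu (malic enzyme 1, glucose-6-phosphate dehydrogenase, the modifier subunit of glutamate-cysteine ligase and peroxiredoxin 1), shown because each holds an ARE core, and the last 2 are the metallothioneins, which were highest with Zn.
Me1 (chr9:86695885-86696164, minus strand): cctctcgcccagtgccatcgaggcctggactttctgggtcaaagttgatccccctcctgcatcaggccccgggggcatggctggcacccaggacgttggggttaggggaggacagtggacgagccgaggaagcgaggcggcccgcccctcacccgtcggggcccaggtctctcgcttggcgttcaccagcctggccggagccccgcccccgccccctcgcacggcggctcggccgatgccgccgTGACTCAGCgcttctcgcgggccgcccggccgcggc
G6pdx (chrX:74428851-74429130, minus strand): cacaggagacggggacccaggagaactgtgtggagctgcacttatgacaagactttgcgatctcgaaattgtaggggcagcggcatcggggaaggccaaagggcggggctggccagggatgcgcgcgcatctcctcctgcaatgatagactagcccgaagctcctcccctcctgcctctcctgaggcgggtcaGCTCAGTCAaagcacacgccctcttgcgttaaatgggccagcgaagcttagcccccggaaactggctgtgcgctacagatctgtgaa
Gclm (chr3:122245307-122245586, plus strand): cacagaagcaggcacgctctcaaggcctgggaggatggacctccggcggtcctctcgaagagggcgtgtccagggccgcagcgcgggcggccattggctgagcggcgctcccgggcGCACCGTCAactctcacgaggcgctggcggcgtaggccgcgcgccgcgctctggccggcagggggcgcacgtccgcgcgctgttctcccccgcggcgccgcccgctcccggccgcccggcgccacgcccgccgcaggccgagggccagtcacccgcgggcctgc
Prdx1 (chr4:116685349-116685628, plus strand): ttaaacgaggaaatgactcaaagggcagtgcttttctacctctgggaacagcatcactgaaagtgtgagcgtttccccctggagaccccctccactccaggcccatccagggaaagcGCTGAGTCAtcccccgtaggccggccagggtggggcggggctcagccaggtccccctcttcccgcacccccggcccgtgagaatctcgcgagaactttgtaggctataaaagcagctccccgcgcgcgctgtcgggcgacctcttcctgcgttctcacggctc
Mt1 (chr8:94178839-94179118, plus strand): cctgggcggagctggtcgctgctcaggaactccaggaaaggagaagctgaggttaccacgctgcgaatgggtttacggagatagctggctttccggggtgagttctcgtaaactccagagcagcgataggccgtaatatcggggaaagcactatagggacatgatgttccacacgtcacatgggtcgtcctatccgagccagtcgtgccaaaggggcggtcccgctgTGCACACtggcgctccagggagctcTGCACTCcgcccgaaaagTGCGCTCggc
Mt2 (chr8:94172368-94172647, plus strand): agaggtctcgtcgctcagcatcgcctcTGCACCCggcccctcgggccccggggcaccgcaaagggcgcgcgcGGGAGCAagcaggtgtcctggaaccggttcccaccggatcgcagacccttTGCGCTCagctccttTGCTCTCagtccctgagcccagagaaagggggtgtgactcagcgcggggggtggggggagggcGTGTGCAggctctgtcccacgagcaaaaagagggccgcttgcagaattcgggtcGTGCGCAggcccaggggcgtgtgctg
In windows of 300 bases (250 before and 50 after the start), an ARE core was held by 5 of the 18 promoters found for the 24 NRF2 list members that rose (27.8%), *Srxn1* being the fifth, by 12.5% of all 27025 promoters, by 15.6% of those of all risers and by 15.5% of those of all fallers. It was held by 7 of 28 promoters of the whole NRF2 list (25%), and by larger shares of the metallothionein and zinc list (6 of 15, 40%) and the copper handling list (4 of 11, 36.4%), so it did not single out the NRF2 list. The MRE core, a shorter string, was held by 50.4% of all promoters, 59.97% of those of the genes tested, 61.0% of risers, 62.9% of fallers, 8 of 11 copper handling genes (72.7%), 8 of 18 NRF2 risers (44.4%) and 12 of 15 metallothionein and zinc genes (80%). *Mt1* held 3 and *Mt2* held 6. No ARE core lay in the window of *Nqo1*, which says only that these letters are not within it.

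Genes of the NRF2 and glutathione list were higher with Cu. Of its 34 members 24 rose and none fell, beside 5.46% risers among all genes, with a median log2 fold change of 0.42 against −0.01 over all genes tested. After the correction 19 rose with a median of 0.41, and 18 rose in both fits. In 28 members both Cu libraries lay above both NT libraries, as in 29.7% of all genes. The count depended on single libraries, with 10 risers left when Cu replicate 1 was dropped and 5 when untreated replicate 2 was dropped, and no member fell in either case.

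Detoxifying enzymes made up the first role, with 8 of 10 members risen. *Nqo1*, an NADPH-dependent quinone reductase, stood at 122 and 118 CPM with Cu, 61.2 and 58.5 CPM untreated and 73.9 and 68.7 CPM with Zn. Both Cu libraries were above the 4 others. The level doubled with Cu (log2 fold change 1.00 ± 0.08, adjusted p = 0.00142), the correction left it at 1.01, and the call was kept without Cu replicate 1 (0.98, adjusted p = 0.0149) and without untreated replicate 2 (0.97, adjusted p = 0.0247). *Hmox1*, the haem oxygenase, went to 152 and 172 CPM from 99.7 and 80.9 CPM, and stood at 111 and 91.0 CPM with Zn (0.84 ± 0.12 for Cu, adjusted p = 0.00668). *Blvrb*, a reductase of flavins and biliverdin, rose from 15.6 and 14.3 CPM to 28.6 and 23.6 CPM (0.80 ± 0.14, adjusted p = 0.0108). *Abcc1*, an exporter of glutathione conjugates, rose from 184 and 181 CPM to 312 and 290 CPM (0.72 ± 0.08, adjusted p = 0.00285). In each of these genes the Cu and NT libraries did not overlap. *Gsta4*, a glutathione transferase for lipid aldehydes, stood at 274 and 271 CPM with Cu against 157 and 140 CPM, and Zn was in between at 211 and 185 CPM. It rose by 0.88 ± 0.09 (adjusted p = 0.00282) and kept the call without Cu replicate 1 (adjusted p = 0.0288) and without untreated replicate 2 (adjusted p = 0.0317). The transferases *Gstm1* (0.53), *Gstp1* (0.42) and *Gsto1* (0.41) rose by less and were no longer called after the correction.

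The genes that reduce thiols followed, 5 of 8 risen. *Srxn1*, the sulfiredoxin that repairs over-oxidised peroxiredoxins, stood at 218 and 198 CPM with Cu, 111 and 102 CPM untreated and 121 and 119 CPM with Zn. The Zn libraries lay next to the NT libraries and the Cu libraries apart from both. The rise was 0.96 ± 0.08 (adjusted p = 0.00156), and 0.80 after the correction. *Txnrd1*, thioredoxin reductase, went from 376 and 368 CPM to 649 and 545 CPM (0.68 ± 0.10, adjusted p = 0.00618). *Prdx6* (0.55 ± 0.08, adjusted p = 0.00675) and *Prdx1* (0.34 ± 0.08, adjusted p = 0.0269) are peroxiredoxins, and *Prdx1* was at 309 and 308 CPM with Cu against 258 and 229 CPM. The correction raised the value of *Prdx1* to 0.59. Catalase (*Cat*) rose as sequenced and was not called after the correction. *Txn1* and *Gpx1*, among the other members, were not called.

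Glutathione supply gave 4 risers of 5. *Gclc*, the catalytic subunit of the rate-limiting ligase, was at 91.5 and 98.3 CPM with Cu against 66.2 and 64.1 CPM untreated and 66.5 and 69.6 CPM with Zn (0.54 ± 0.08, adjusted p = 0.00778). Its partner *Gclm* was at 63.3 and 65.1 CPM against 49.6 and 47.8 CPM (0.40 ± 0.09, adjusted p = 0.0212), and after the correction at 0.73. The Cu libraries of both subunits lay above all the others. *Gsr* (0.37 ± 0.08, adjusted p = 0.0223) and *Gss* (0.35 ± 0.10, adjusted p = 0.0497), which regenerate and complete glutathione, were lost with the correction. *Slc7a11*, the cystine importer, behaved the other way: at 19.4 and 25.5 CPM against 16.5 and 20.7 CPM it was not called as sequenced (0.27 ± 0.15, adjusted p = 0.259), and it was called after the correction (0.71, adjusted p = 0.00589).

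All 5 enzymes of NADPH supply and the pentose phosphate pathway rose, and all 5 did so after the correction. *Pgd*, which makes NADPH in that pathway, stood at 359 and 337 CPM with Cu, 192 and 183 CPM untreated and 267 and 231 CPM with Zn (0.89 ± 0.09, adjusted p = 0.00268). *G6pdx*, which commits glucose to it, was at 216 and 236 CPM against 166 and 142 CPM (0.55 ± 0.10, adjusted p = 0.0123). *Tkt* (0.59 ± 0.08, adjusted p = 0.00535) and *Taldo1* (0.58 ± 0.11, adjusted p = 0.0125) return its sugar phosphates to glycolysis. *Me1*, malic enzyme, was at 89.8 and 93.8 CPM with Cu, 74.9 and 65.4 CPM untreated and 60.01 and 65.00 CPM with Zn (0.39 ± 0.09, adjusted p = 0.0274). With Zn it was below the NT libraries, with Cu above them. The ferritin chains *Ftl1* (0.68 ± 0.11, adjusted p = 0.00928) and *Fth1* (0.47 ± 0.11, adjusted p = 0.0228), which store iron, rose in both fits. The factors themselves were not called: *Nfe2l2*, which encodes NRF2, was at 109 and 128 CPM with Cu against 156 and 130 CPM (−0.27 ± 0.12, adjusted p = 0.143), and *Keap1*, *Bach1* and *Mafg* were not called either. By DESeq2, as in an edgeR fit with the replicate number as a block, 2 of these 4 factors rose.

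**Figure D2:**
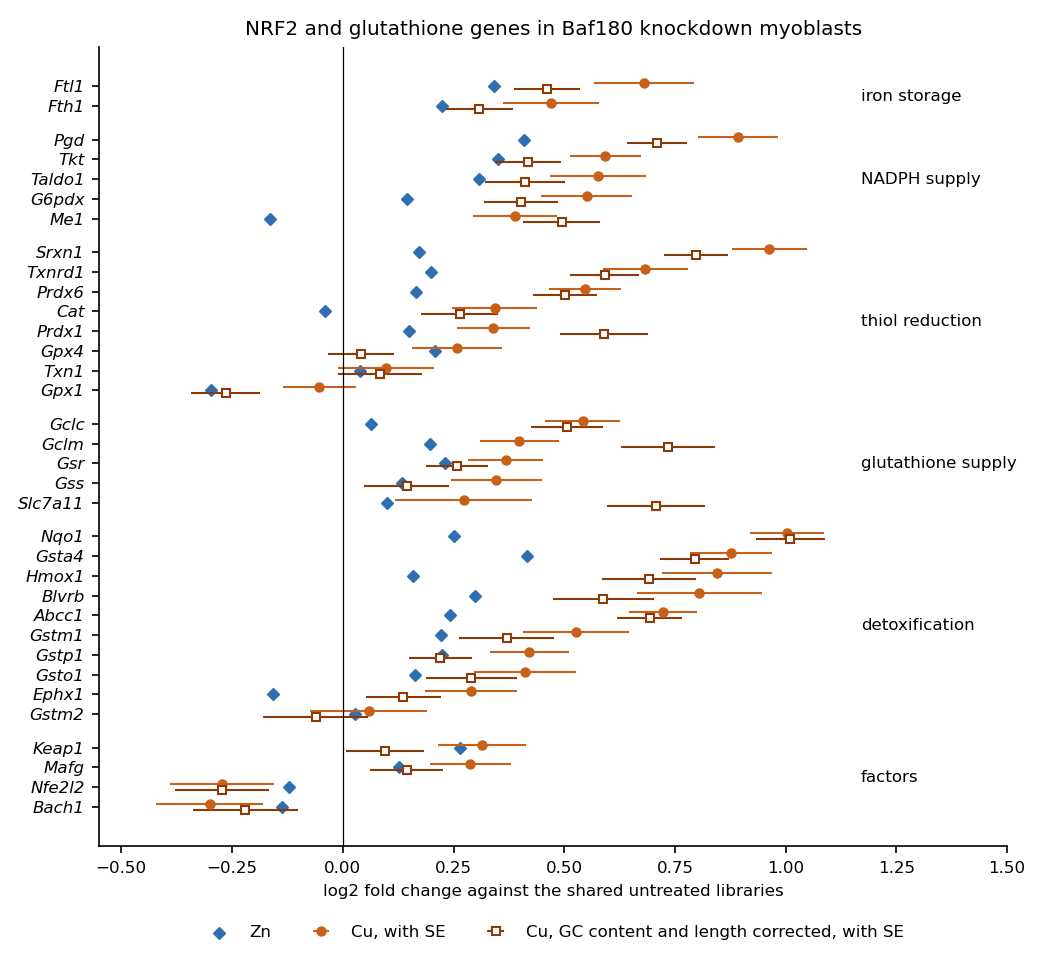
Log2 fold change of Cu over NT for the 34 members of the NRF2 and glutathione list, ordered by role, as sequenced and corrected for GC content and length (points with SE, 2 libraries per group), and of Zn over NT (points alone). *Nqo1* at 1.00 and *Srxn1* at 0.96 lead, 31 members lie above 0 with Cu, and the median with Zn is 0.17.

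Against Zn, which was given at a lower dose, 51 genes of 15241 differed (0.335%), 29 higher with Cu (0.19%) and 22 lower (0.144%), while 2151 had an unadjusted p under 0.05, and after the correction 87 were higher and 58 lower. Of the 34 NRF2 list members 4 were higher with Cu than with Zn, namely *Srxn1* (adjusted p = 0.0138), *Nqo1* (adjusted p = 0.0144), *Abcc1* (adjusted p = 0.0489) and *Me1* (adjusted p = 0.0498). *Hmox1* missed the threshold (adjusted p = 0.0548). The Cu and Zn responses share the NT libraries, so their values are set side by side and no likeness between them was computed. The number of such genes fell to 3 without Cu replicate 1, to 12 without Cu replicate 2, to 25 and 32 without untreated replicates 1 and 2, and to 4 without Zn replicate 1.

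Among genes for moving Cu through the cell, the calls were few and went in both directions. Of 15 listed members 14 were tested (*Atp7b* was too low), 2 rose, 2 fell, and the median was 0.17. Over all genes 5.46% rose and 8.3% fell. After the correction 1 member rose and none fell, beside 2.41% and 3.71% of all genes. *Atp7a*, the exporter, was at 30.4 and 33.4 CPM with Cu, 42.7 and 49.9 CPM untreated and 36.9 and 43.1 CPM with Zn. The Cu libraries were the lowest of the 6. It fell (−0.54 ± 0.12, adjusted p = 0.0192), and the correction left −0.35 (adjusted p = 0.0662). *Cox17*, which hands Cu to cytochrome oxidase assembly, was at 10.6 and 11.4 CPM against 14.2 and 18.8 CPM (−0.58 ± 0.15, adjusted p = 0.0329, and 0.0552 after the correction). *Commd1*, a protein that takes part in the sorting of ATP7A, was at 34.1 and 28.9 CPM with Cu against 21.2 and 21.3 CPM untreated and 23.2 and 25.6 CPM with Zn (0.57 ± 0.11, adjusted p = 0.015), and was the riser kept by the correction (0.70, adjusted p = 0.00665). *Sco2*, a Cu chaperone of cytochrome oxidase, was at 12.1 and 10.8 CPM against 7.76 and 5.89 CPM (0.75 ± 0.17, adjusted p = 0.0219, and 0.0742 after the correction). Both Cu libraries lay beyond both NT libraries in these 4 genes, and none of the 4 was called without Cu replicate 1 (adjusted p = 0.13 for *Atp7a*, 0.107 for *Commd1*, 0.177 for *Cox17* and 0.145 for *Sco2*) or without untreated replicate 2 (0.18, 0.123, 0.304 and 0.191). *Cox17* was also lost without Cu replicate 2 (adjusted p = 0.056) and *Commd1* without untreated replicate 1 (adjusted p = 0.056).

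*Slc31a1*, the importer, was at 64.3 and 67.0 CPM with Cu and 69.5 and 61.8 CPM untreated, with the groups overlapping (0.00 ± 0.10, adjusted p = 0.997). *Atox1*, the chaperone that feeds ATP7A, was at 45.9 and 44.6 CPM against 38.9 and 34.1 CPM and missed the threshold (0.31, adjusted p = 0.0779). The chaperone *Ccs*, which loads superoxide dismutase, was at 0.34 (adjusted p = 0.182). The other members not called, *Slc31a2*, *Slc25a3*, *Sco1*, *Coa6*, *Cox11*, *Cox19* and *Cutc*, lay between −0.15 and 0.26. Among 10 tested enzymes that use Cu 1 rose and 2 fell, beside 5.46% and 8.3% of all genes. After the correction 1 rose and 3 fell, beside 2.41% and 3.71%. *Sod1* rose, at 209 and 193 CPM with Cu against 152 and 136 CPM (0.48 ± 0.09, adjusted p = 0.0124), and was at 191 and 172 CPM with Zn. *Loxl2*, a lysyl oxidase, fell (−0.58, adjusted p = 0.0298) in both fits, and *Cp*, ceruloplasmin, fell only as sequenced (−0.45, adjusted p = 0.0194). Without Cu replicate 1 or without untreated replicate 2 none of the 3 was called, nor was *Loxl2* without untreated replicate 1 (adjusted p = 0.0756).

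The metallothioneins, small proteins that bind Zn and Cu by their cysteines, were highest with Zn and were not called with Cu. *Mt1* stood at 258 and 324 CPM with Cu, 282 and 226 CPM untreated and 724 and 514 CPM with Zn. *Mt2* stood at 123 and 128 CPM with Cu, 110 and 99.8 CPM untreated and 375 and 312 CPM with Zn. Cu and NT overlapped for *Mt1* and lay next to each other for *Mt2*, and the Zn libraries were apart from both. With Cu the log2 fold change was 0.20 ± 0.17 (adjusted p = 0.457) for *Mt1* and 0.26 ± 0.10 (adjusted p = 0.114) for *Mt2*, beside 1.28 and 1.71 with Zn, and both were lower with Cu than with Zn (adjusted p = 0.0489 and 0.000639). *Slc30a1*, the Zn exporter of the plasma membrane, went the same way at 18.99 and 16.97 CPM with Cu, 16.6 and 16.5 CPM untreated and 36.0 and 31.5 CPM with Zn (Cu against Zn, adjusted p = 0.029). *Slc39a10*, a Zn importer, was low with Zn (17.5 and 14.6 CPM) and at 32.2 and 35.5 CPM with Cu against 38.8 and 38.5 CPM untreated (Cu against Zn, adjusted p = 0.0138). *Mtf1*, the sensor, was at 45.2 and 44.4 CPM against 41.8 and 42.6 CPM (0.09, adjusted p = 0.585). Of the 17 metallothionein and zinc genes tested *Slc39a14* rose and *Slc30a4* and *Slc30a7* fell, with a median of 0.11. Among all genes 5.46% rose and 8.3% fell. After the correction none of the 17 was called, although *Slc30a4* came close (adjusted p = 0.0516). None was called without Cu replicate 1 or without untreated replicate 2.

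**Figure D3:**
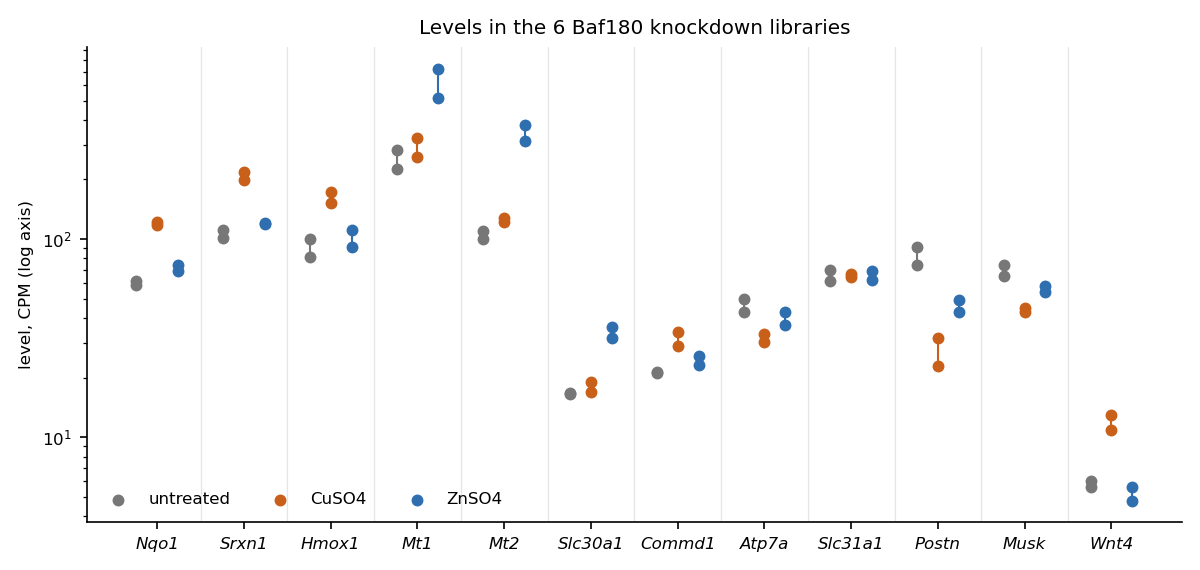
Level in CPM (log axis) of 12 genes in each of the 6 Baf180 KD libraries, 2 untreated, 2 with CuSO4 and 2 with ZnSO4. *Nqo1*, *Srxn1* and *Hmox1* are high with Cu, *Mt1*, *Mt2* and *Slc30a1* with Zn, and *Slc31a1* overlaps between the groups.

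Of the other responses to stress, the list of ATF4 targets was the next to rise. ATF4 is a factor made when amino acids are short or proteins misfold. Of 25 members 13 rose and none fell (median 0.33), beside 5.46% risers among all genes, and all 13 were among the 20 target genes. After the correction 7 rose (median 0.17), beside 2.41%. *Phgdh*, the first enzyme of serine synthesis, was at 245 and 221 CPM with Cu against 149 and 141 CPM (0.69 ± 0.09, adjusted p = 0.00541). *Trib3*, a pseudokinase induced with ATF4, was at 52.5 and 41.0 CPM against 29.4 and 28.6 CPM (0.69 ± 0.12, adjusted p = 0.0118). *Psph*, the last enzyme of serine synthesis (0.60 ± 0.11, adjusted p = 0.0115), and *Chac1*, which degrades glutathione (0.58 ± 0.12, adjusted p = 0.0178), rose in both fits. The Cu libraries lay above the NT libraries in all 4. *Atf4* itself was at 558 and 604 CPM against 579 and 523 CPM (0.08, adjusted p = 0.652). The list had 1 riser without Cu replicate 1 and none without untreated replicate 2, *Trib3* among those lost (adjusted p = 0.0774 and 0.101).

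In the heat shock list, of 24 members none rose and 3 fell, and the median was 0.05. Among all genes 5.46% rose and 8.3% fell. After the correction none rose and 1 fell, beside 2.41% and 3.71%. DESeq2 called 2 risers and 3 fallers in this list. *Hspa1b*, the stress-induced HSP70 (0.31, adjusted p = 0.261), and *Hspb1* (0.10) were not called. *Hsp90b1*, the HSP90 of the endoplasmic reticulum, was at 433 and 474 CPM with Cu, 736 and 802 CPM untreated and 591 and 665 CPM with Zn. The 3 treatments did not overlap, Cu being lowest. It fell (−0.76 ± 0.10, adjusted p = 0.00445), as it did after the correction (−0.58, adjusted p = 0.00169), without Cu replicate 1 (−0.70, adjusted p = 0.0398) and without untreated replicate 2 (−0.70, adjusted p = 0.0449). *Hsp90aa1* (−0.73, adjusted p = 0.0351) and its co-chaperone *Dnaja1* (−0.58, adjusted p = 0.00769) were lost with the correction (adjusted p = 0.057 and 0.317).

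Excess Cu is known to aggregate lipoylated enzymes of mitochondria, a death route called cuproptosis. Of its 13 listed genes 1 was called: *Dld*, the lipoamide dehydrogenase, fell from 69.5 and 85.6 CPM to 46.4 and 50.2 CPM (−0.68 ± 0.12, adjusted p = 0.00985), as it did after the correction (−0.37, adjusted p = 0.0292), but not without Cu replicate 1 (adjusted p = 0.0834) or untreated replicate 2 (adjusted p = 0.0986). The ferredoxin *Fdx1* (0.23, adjusted p = 0.266) and the lipoyl synthase *Lias* (−0.06) were not called. Among 28 apoptosis genes 6 rose and 2 fell (2 and 0 after the correction), and 5 of the 6 risers were among the 21 that promote death. Among all genes 5.46% rose and 8.3% fell (2.41% and 3.71% after the correction). *Bax*, which permeabilises mitochondria and is also a p53 target, was at 129 and 115 CPM against 88.5 and 86.0 CPM (0.48 ± 0.09, adjusted p = 0.0112). *Xiap*, an inhibitor of caspases, was at 31.0 and 43.8 CPM against 60.1 and 63.5 CPM (−0.72 ± 0.16, adjusted p = 0.0212), and was not called after the correction (adjusted p = 0.155). Neither *Bax* (adjusted p = 0.0877) nor *Xiap* (adjusted p = 0.133) was called without Cu replicate 1, nor without untreated replicate 2 (adjusted p = 0.104 and 0.136). Of 22 p53 targets 3 rose and 4 fell (2 and 1 after the correction), and among 18 interferon-stimulated genes the smallest p was that of *Ifit2*, which missed the threshold (−0.45, adjusted p = 0.0758).

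Glycolysis rose in part, with 9 of 19 members up, none down, and a median of 0.33, or 7 up and 0.15 after the correction. Risers among all genes were 5.46%, or 2.41% after the correction. *Pfkl*, the liver-type phosphofructokinase, was at 253 and 203 CPM with Cu, 145 and 144 CPM untreated and 157 and 151 CPM with Zn (0.66 ± 0.10, adjusted p = 0.00769). *Ldha*, lactate dehydrogenase, was at 988 and 882 CPM against 636 and 584 CPM (0.62 ± 0.10, adjusted p = 0.00818), and *Pgk1* at 244 and 204 CPM against 143 and 142 CPM (0.65 ± 0.09, adjusted p = 0.00637). *Pgam1*, at 94.4 and 94.8 CPM against 67.2 and 59.97 CPM, was higher with Cu than with Zn as well (61.2 and 62.0 CPM, adjusted p = 0.0407). The list had 2 risers without Cu replicate 1 and none without untreated replicate 2. Of 23 sterol synthesis genes 7 rose and none fell (median 0.21), beside 5.46% risers among all genes, and none was called after the correction.

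Genes of mitochondria were called at shares nearer those of all genes (5.46% risers, 8.3% fallers). Of 80 subunits of oxidative phosphorylation 9 rose and 5 fell, after the correction 1 rose and 7 fell, and without Cu replicate 2, 22 rose and 3 fell. *Uqcrb*, of complex III, was at 14.4 and 19.3 CPM against 28.6 and 34.7 CPM (−0.91, adjusted p = 0.0095) and *Cox7b*, of cytochrome oxidase, at 32.2 and 34.8 CPM against 48.6 and 64.7 CPM (−0.76 ± 0.14, adjusted p = 0.0119), and both fell in both fits. *Cox7a2l*, which joins respiratory complexes, rose by 0.49 and was not called after the correction (0.40, adjusted p = 0.0559). Of 21 tested transcripts of the mitochondrial genome, the median was −0.37 as sequenced and −0.07 after the correction, and *mt-Nd6*, at 458 and 421 CPM against 584 and 630 CPM (−0.47 ± 0.11, adjusted p = 0.0253), fell only as sequenced. That median went to −0.02 without untreated replicate 1, −0.08 without Cu replicate 1 and −0.78 without Cu replicate 2. Of 76 mitochondrial ribosomal proteins 7 rose and 4 fell, with 5 and 2 after the correction. None of these calls was kept without Cu replicate 1 or without untreated replicate 2.

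Histone genes used in S phase rose most among the large lists. Of 56 replication-dependent histones 44 rose and none fell (median 0.66), beside 5.46% risers among all genes, and 31 rose after the correction (median 0.50), beside 2.41%. In 51 both Cu libraries were above both NT libraries, as in 29.7% of all genes. When Cu replicate 1 was left out 21 rose, and when untreated replicate 2 was left out 8 rose. The linker histone *H1f2* was at 483 and 331 CPM with Cu, 198 and 208 CPM untreated and 294 and 308 CPM with Zn (1.00 ± 0.14, adjusted p = 0.00637). The linkers *H1f3* (0.70 ± 0.09, adjusted p = 0.00442) and *H1f5* (0.66 ± 0.08, adjusted p = 0.00431) rose as well, and all 5 H1 genes tested did. *H3c3*, at 77.2 and 70.7 CPM against 34.0 and 28.3 CPM untreated and 33.0 and 45.1 CPM with Zn, rose by 1.25 ± 0.15 (adjusted p = 0.0036), kept the call without Cu replicate 1 (adjusted p = 0.0357) and without untreated replicate 2 (adjusted p = 0.0387), and was higher than with Zn (adjusted p = 0.0489). The largest value of the list was that of *H2ac7*, at 8.98 and 5.58 CPM against 2.74 and 1.75 CPM (1.69 ± 0.37, adjusted p = 0.0203), lost without Cu replicate 1 (adjusted p = 0.16) and untreated replicate 2 (adjusted p = 0.151). With Zn the list's median was 0.42. Histone genes are near-identical copies and end without a poly(A) tail, and the unique reads counted here may be split unevenly between them, so single members are uncertain.

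Other cycle genes moved less, and their counts stand beside 5.46% risers and 8.3% fallers among all genes, or 2.41% and 3.71% after the correction. Of 43 S phase genes 14 rose and 2 fell (median 0.23), with 5 and 0 after the correction, and *Chaf1b*, which loads histones on new DNA, went from 47.3 and 44.3 CPM to 64.1 and 68.3 CPM (0.53 ± 0.10, adjusted p = 0.0142). Of 55 G2 and mitosis genes 2 rose and 15 fell (median −0.11), with 0 and 3 after the correction. *Smc2*, a condensin subunit, was at 47.8 and 72.6 CPM against 84.6 and 128 CPM (−0.82, adjusted p = 0.043) and was lost with the correction (adjusted p = 0.0861), and the fallers kept were *Hmmr*, *Nusap1* and *Spc25*. *Mki67*, the proliferation marker, was at 173 and 235 CPM against 263 and 370 CPM (−0.63 ± 0.19, adjusted p = 0.0479). Of 53 DNA repair genes 4 rose and 8 fell (1 and 4 after the correction), 7 of the fallers being among the 21 of double-strand break repair, and *Lig4*, the ligase of end joining, fell in both fits (−0.87, adjusted p = 0.0126). No member of these 3 lists was called without Cu replicate 1 or without untreated replicate 2.

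Of 82 cytosolic ribosomal proteins 28 rose and none fell (median 0.28), beside 5.46% risers and 8.3% fallers among all genes. After the correction 17 rose and 1 fell, beside 2.41% and 3.71%. These genes too have many near-identical pseudogene copies. *Rpsa*, at 778 and 751 CPM against 527 and 495 CPM (0.58 ± 0.08, adjusted p = 0.00646), rose in both fits. The list had 1 riser without Cu replicate 1 and none without untreated replicate 2. Of 303 genes named *Zfp*, zinc finger genes that are low in GC content (median 45.4%), none rose and 42 fell (median −0.27), beside 8.3% fallers among all genes, and after the correction 1 rose and 13 fell (median −0.16), near the 3.71% of all genes, 9 of them in both fits. *Zfp748* was at 2.87 and 3.36 CPM against 7.180 and 6.9996 CPM (−1.18, adjusted p = 0.00924). Of 20 immediate early factors 5 rose and none fell (median 0.26), beside 5.46% risers among all genes, with 3 risers after the correction, beside 2.41%. The largest rise was that of *Ier2*, at 119 and 91.2 CPM against 65.7 and 63.2 CPM (0.71 ± 0.12, adjusted p = 0.0095), which was at 95.5 and 101 CPM with Zn. Of 56 splicing genes 2 rose and 8 fell, beside 5.46% and 8.3% of all genes, and 3 and 4 after the correction, beside 2.41% and 3.71%. Among 16 hnRNP proteins were 5 of the fallers, of which *Hnrnph1* went from 176 and 249 CPM to 114 and 126 CPM (−0.82, adjusted p = 0.0112). Of 25 SWI/SNF subunits 1 rose and 4 fell, beside the same shares of all genes. Apart from *Pbrm1* the fallers were *Smarca2*, an ATPase of the complex, and the PBAF subunits *Phf10* and *Arid2*. After the correction *Smarca2* (−0.59) and *Phf10* (−0.36) were called and *Pbrm1* was not (−0.18, adjusted p = 0.299). Of the last 4 lists without Cu replicate 1, 1 *Zfp* gene fell, and without untreated replicate 2 no member was called.

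**Figure D4:**
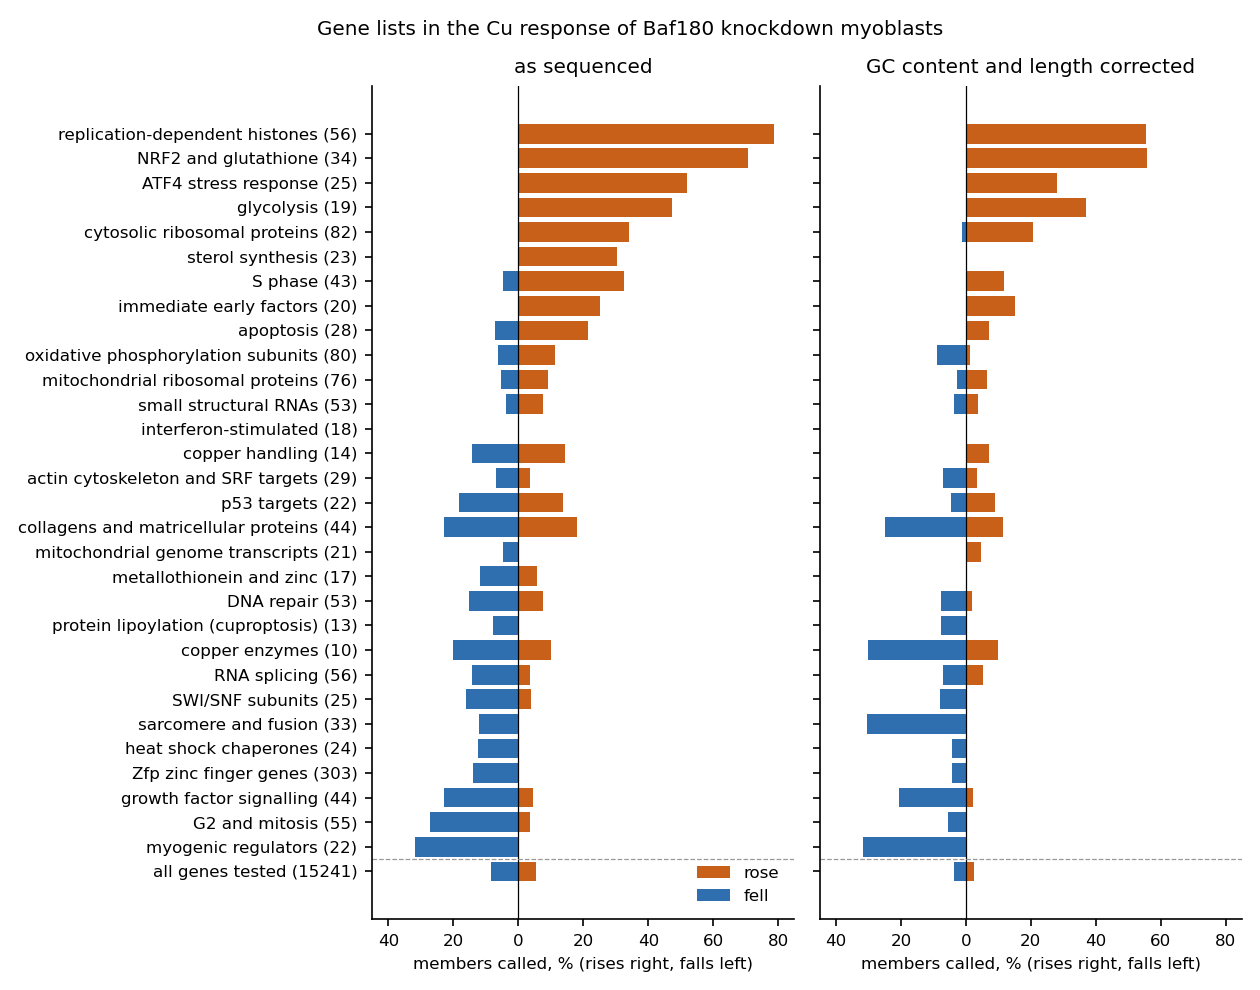
Percent of the tested members of each gene list that rose (right) or fell (left) with Cu, as sequenced and corrected for GC content and length, with all genes tested at the bottom. Replication-dependent histones (44 of 56) and the NRF2 and glutathione list (24 of 34) reach farthest to the right. The myogenic list has fallers and no risers in both panels (7 of 22 as sequenced and 7 after the correction).

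Some muscle genes were lower. Of 22 myogenic regulators 7 fell and none rose (median −0.29), beside 8.3% fallers among all genes, with 7 fallers after the correction (median −0.17) and 5 in both fits. *Myog*, the factor that commits myoblasts to differentiate, was at 23.8 and 25.7 CPM with Cu against 35.7 and 31.5 CPM (−0.44 ± 0.12, adjusted p = 0.04). *Mef2a*, its partner factor, was at 78.7 and 98.0 CPM against 140 and 144 CPM (−0.69 ± 0.11, adjusted p = 0.00778), and *Mef2c* at 1.49 and 1.42 CPM against 3.05 and 3.16 CPM (−1.09 ± 0.26, adjusted p = 0.0269), lost with the correction (adjusted p = 0.132) and without any of the 4 libraries in turn (adjusted p = 0.0643 to 0.154). *Musk*, the receptor kinase of the neuromuscular junction, was at 42.9 and 45.1 CPM with Cu, 65.0 and 74.4 CPM untreated and 57.8 and 53.8 CPM with Zn (−0.66 ± 0.10, adjusted p = 0.00715). *Myod1*, at 103 and 107 CPM against 130 and 115 CPM, was called only after the correction (−0.22, adjusted p = 0.13 as sequenced; −0.44, adjusted p = 0.0116 corrected), and *Pax7* stood at 0.08. No member was called without Cu replicate 1 or without untreated replicate 2.

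Of 33 genes of the sarcomere and of fusion 4 fell and none rose (median −0.21), beside 8.3% fallers among all genes, and 10 fell after the correction (median −0.39), beside 3.71%. *Neb*, the giant protein of the thin filament, was at 9.40 and 12.3 CPM against 17.9 and 25.9 CPM (−1.01 ± 0.19, adjusted p = 0.0127). *Tnnt3*, fast troponin T, was at 7.95 and 6.18 CPM against 13.0 and 13.2 CPM (−0.90 ± 0.15, adjusted p = 0.0103), and *Myl1*, a myosin light chain, at 7.56 and 8.73 CPM against 13.3 and 13.2 CPM (−0.70 ± 0.15, adjusted p = 0.0194). *Myh3*, embryonic myosin, was at 25.3 and 25.8 CPM with Cu against 36.7 and 41.4 CPM, and Zn was as low at 23.2 and 27.9 CPM (−0.61 ± 0.11 for Cu, adjusted p = 0.0123). The Cu and NT libraries did not overlap in any of the 4. Of these calls 1 was left without Cu replicate 1 and none was without untreated replicate 2. *Synpo2l*, a sarcomeric actin binder, was at 83.4 and 81.0 CPM against 87.5 and 90.4 CPM (−0.11 ± 0.08, adjusted p = 0.368), and the factor *Klf4* at 55.3 and 54.3 CPM against 53.9 and 49.5 CPM (0.09 ± 0.12, adjusted p = 0.662).

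Secreted matrix proteins held some of the largest falls. Of 44 collagens and matricellular proteins 8 rose and 10 fell, 5 and 11 after the correction, and without Cu replicate 1 none rose and 6 fell, as without untreated replicate 2 none rose and 5 fell. The shares over all genes were 5.46% risers and 8.3% fallers, and 2.41% and 3.71% after the correction. *Postn*, periostin, was at 22.9 and 31.7 CPM with Cu, 74.0 and 90.9 CPM untreated and 42.8 and 49.5 CPM with Zn. The 3 treatments did not overlap. It was 3.01-fold lower with Cu (log2 fold change −1.59 ± 0.16, adjusted p = 0.00268), −1.42 after the correction, −1.38 without Cu replicate 1 (adjusted p = 0.0214) and −1.44 without untreated replicate 2 (adjusted p = 0.0247). *Dcn*, the proteoglycan decorin, was at 3.06 and 3.85 CPM against 11.8 and 9.94 CPM (−1.65 ± 0.20, adjusted p = 0.0036), and stayed called without Cu replicate 1 (adjusted p = 0.0357) and untreated replicate 2 (adjusted p = 0.0279). *Vcan*, the proteoglycan versican, was at 220 and 248 CPM against 394 and 395 CPM (−0.75 ± 0.09, adjusted p = 0.00314). *Spp1*, osteopontin, was at 1045 and 1173 CPM against 1564 and 1889 CPM, with Zn beside NT at 1541 and 1799 CPM (−0.64 ± 0.13, adjusted p = 0.0143). *Ccn3*, by contrast, was as low with Zn (19.6 and 23.1 CPM) as with Cu (22.8 and 20.9 CPM against 40.8 and 34.4 CPM untreated; −0.78 ± 0.12, adjusted p = 0.00778). Collagens parted by type. The chains of collagen VI fell (*Col6a1* −0.51 ± 0.10, adjusted p = 0.0133; *Col6a2* −0.46 ± 0.09, adjusted p = 0.0123), while the basement membrane chain *Col4a1* rose from 426 and 422 CPM to 662 and 559 CPM (0.53 ± 0.09, adjusted p = 0.0117), as did its partner *Col4a2* (0.44, adjusted p = 0.0138).

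Among 44 genes of growth factor signalling 2 rose and 10 fell, with 1 and 9 after the correction, 0 and 2 without Cu replicate 1, and 0 and 1 without untreated replicate 2. Over all genes 5.46% rose and 8.3% fell, and 2.41% and 3.71% after the correction. *Wnt4*, a secreted ligand, was at 13.0 and 10.9 CPM with Cu, 5.61 and 6.02 CPM untreated and 4.78 and 5.64 CPM with Zn. Only the Cu libraries were high. It rose (1.04 ± 0.16, adjusted p = 0.00778, 0.85 after the correction) and was higher than with Zn (adjusted p = 0.0407), but was not called without Cu replicate 1 (0.91, adjusted p = 0.0755) or untreated replicate 2 (1.09, adjusted p = 0.0677). *Heyl*, a repressor downstream of Notch, was at 5.65 and 4.73 CPM with Cu, 10.5 and 12.2 CPM untreated and 14.6 and 11.7 CPM with Zn (−1.13 ± 0.17, adjusted p = 0.00753; Cu against Zn, adjusted p = 0.031). *Hey1*, of the same family, fell too (−0.78 ± 0.22, adjusted p = 0.0456), and all 8 Notch genes tested had both Cu libraries below both NT libraries, as 31% of all genes had. *Igfbp5*, an IGF-binding protein, was at 1298 and 1392 CPM with Cu, 2445 and 2311 CPM untreated and 2168 and 2082 CPM with Zn (−0.82 ± 0.10, adjusted p = 0.00413; Cu against Zn, adjusted p = 0.0489). *Igf1*, a growth factor that promotes differentiation, was at 1.64 and 2.15 CPM against 3.95 and 5.98 CPM (−1.38, adjusted p = 0.0147), and was lost with the correction (adjusted p = 0.0566). Of the TGF-beta family *Inhba*, the activin A subunit, went from 134 and 175 CPM to 78.2 and 86.6 CPM and was nearly as low with Zn at 84.1 and 103 CPM (−0.91 ± 0.13, adjusted p = 0.00688), and the ligands *Tgfb2* (−0.58 ± 0.11, adjusted p = 0.0124) and *Tgfb3* (−0.42 ± 0.08, adjusted p = 0.0127) fell in both fits.

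The largest falls over all genes were of transcripts whose libraries differed within groups. *Mir6236* was at 0.0382 and 0.121 CPM with Cu against 12.4 and 1.45 CPM untreated and 8.48 and 0.647 CPM with Zn (−6.27 ± 1.52, adjusted p = 0.0269). *Gm15564* was at 0.153 and 0.242 CPM against 17.5 and 3.20 CPM, and *Gm24187* at 0.306 and 0.515 CPM against 26.2 and 4.18 CPM. *Lars2*, the mitochondrial leucyl-tRNA synthetase, was at 34.4 and 31.6 CPM with Cu, 206 and 56.6 CPM untreated and 106 and 42.5 CPM with Zn (−1.99 ± 0.52, adjusted p = 0.033). In all 4 the first replicate was the high one of both the untreated and the Zn pair, although they lie at different loci. On the scale of all 24 libraries all 4 were also high together in some libraries of other lines. In Brd9 KD with Cu, *Lars2* was at 420 CPM in replicate 1 and 29.3 CPM in replicate 2. In scr it was at 1384 and 652 CPM untreated and 35.1 and 29.9 CPM with Cu. The cause of this shared pattern was not tested. Without untreated replicate 1 *Mir6236* was at −4.02 (adjusted p = 0.107) and *Lars2* at −0.78 (adjusted p = 0.195). None of the 4 was called in that fit, nor without Cu replicate 1 (adjusted p = 0.155 to 0.173) or without Cu replicate 2 (adjusted p = 0.064 to 0.099). *Ano5*, a membrane protein of muscle whose loss causes muscular dystrophy, was steadier at 1.80 and 2.30 CPM with Cu, 5.83 and 8.37 CPM untreated and 3.26 and 4.30 CPM with Zn (−1.78 ± 0.26, adjusted p = 0.00637), and missed the threshold without Cu replicate 1 (adjusted p = 0.0598) and without untreated replicate 2 (adjusted p = 0.0599). The sixth of the largest falls was the unnamed gene *Gm37320* (−1.68, adjusted p = 0.0253).

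The largest rises beside *H2ac7* and *H3c3* were mostly predicted genes, of which *Gm3375* and *Gm10224* are annotated as processed pseudogenes. *Gm3375* was at 29.6 and 23.1 CPM with Cu against 12.6 and 11.1 CPM untreated (1.16 ± 0.15, adjusted p = 0.00431), kept without Cu replicate 1 (adjusted p = 0.0357) and untreated replicate 2 (adjusted p = 0.0485). *Gm10224* rose by 1.31 (adjusted p = 0.0226) and *Apol8*, an apolipoprotein L gene, by 1.30 ± 0.26 (adjusted p = 0.0147), both lost without Cu replicate 1 (adjusted p = 0.171 and 0.105). The small nucleolar RNA *Gm25835* was at 7.75 and 4.73 CPM against 2.06 and 1.88 CPM (1.65 ± 0.28, adjusted p = 0.00969). It was not called without Cu replicate 1 (1.26) or without untreated replicate 2 (1.58). Another, *Snora73b*, was at 134 and 92.5 CPM against 49.4 and 56.4 CPM (1.10 ± 0.15, adjusted p = 0.00588). *Rny1*, a Y RNA bound by the Ro protein, was at 30.8 and 19.2 CPM with Cu, 59.9 and 63.8 CPM untreated and 109 and 55.2 CPM with Zn (−1.31 ± 0.28, adjusted p = 0.0188), and was lost without Cu replicate 1 (adjusted p = 0.0597), Cu replicate 2 (adjusted p = 0.0631) and untreated replicate 2 (adjusted p = 0.111). Of 53 small structural RNAs 4 rose and 2 fell, beside 5.46% and 8.3% of all genes, and 2 and 2 after the correction, beside 2.41% and 3.71%.

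The Cu response was then set against that of the other lines, on the scale of all 24 libraries, where Cu and NT again have 2 libraries per line. It differed from that of scr in 2116 of 16524 genes (12.8%), 891 higher in the Baf180 KD (5.39%) and 1225 lower (7.41%). That number was 0 in an edgeR fit of only the 8 Cu and NT libraries of these 2 lines, 188 after the correction, 2 without Baf180 KD Cu replicate 1, 364 without Baf180 KD untreated replicate 2, 640 without scr Cu replicate 2, 3204 without scr untreated replicate 1, and 1 without scr untreated replicate 2. *Commd1* was at 34.3 and 29.1 CPM with Cu against 21.2 and 20.6 CPM untreated in the Baf180 KD, and at 27.1 and 31.0 CPM against 31.7 and 36.7 CPM in scr. *Atp7a* was at 30.6 and 33.5 CPM against 42.7 and 48.1 CPM in the KD, and at 44.8 and 46.1 CPM against 43.9 and 34.3 CPM in scr. In both genes the Cu libraries lay on opposite sides of the NT libraries in the 2 lines, and the difference of the responses was 0.83 ± 0.17 (adjusted p = 0.00913) and −0.72 ± 0.16 (adjusted p = 0.0102). *Postn*, which fell from 73.9 and 87.6 CPM to 23.0 and 31.8 CPM in the KD, was at 114 and 156 CPM with Cu against 136 and 96.9 CPM in scr (difference −1.77 ± 0.29, adjusted p = 0.00675). *Wnt4* was at 13.1 and 11.0 CPM against 5.60 and 5.80 CPM in the KD and at 10.7 and 10.2 CPM against 11.0 and 14.6 CPM in scr (difference 1.38 ± 0.21, adjusted p = 0.00574).

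*Nqo1* and *Gsta4* had both Cu libraries above both NT libraries in scr as well. *Nqo1* was at 123 and 118 CPM with Cu against 61.1 and 56.4 CPM in the Baf180 KD and, at a lower level, at 21.2 and 19.3 CPM against 12.6 and 13.2 CPM in scr, and the responses were not shown to differ (0.39 ± 0.22, adjusted p = 0.233). *Gsta4* was at 276 and 272 CPM against 157 and 135 CPM in the KD and at 605 and 465 CPM against 279 and 274 CPM in scr (difference −0.04, adjusted p = 0.93). Of the 34 members of the list 10 had a higher response in the KD than in scr, beside 5.39% of all genes, among them *Srxn1* (0.57, adjusted p = 0.026), *Pgd* (0.63, adjusted p = 0.0413) and *Abcc1* (0.53, adjusted p = 0.0137), and 1 a lower one. Of the 56 histones 41 had a higher response, beside the same 5.39%, and none a lower one. These counts rest on the fit of all 24 libraries as sequenced, whose 2116 calls were 188 with the correction, 2 without Baf180 KD Cu replicate 1 and 0 in the fit of 8 libraries.

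From the Baf250a KD the Cu response of the Baf180 KD differed in 1 gene, *Nr4a1* (2.10, adjusted p = 0.0436, 0.00605% of the genes), with 2132 at an unadjusted p under 0.05. DESeq2 called 53, and edgeR called 0 with RLE size factors, with the correction, and in 6 of 8 fits that left out 1 library. From the Brd9 KD it differed in none by edgeR (smallest adjusted p 0.987), with 699 at an unadjusted p under 0.05 and none called by DESeq2. *Postn* was at 163 and 143 CPM with Cu against 187 and 204 CPM in the Baf250a KD and at 37.2 and 29.7 CPM against 68.4 and 74.7 CPM in the Brd9 KD, and *Wnt4* at 40.9 and 45.7 CPM against 20.6 and 22.3 CPM and at 6.29 and 7.41 CPM against 3.797 and 3.982 CPM. *Nqo1* was at 152 and 162 CPM against 66.0 and 64.3 CPM in the Baf250a KD and at 74.2 and 75.8 CPM against 39.1 and 29.8 CPM in the Brd9 KD. In these 3 genes the Cu libraries lay on the same side of the NT libraries in all 3 KD lines. *Commd1* was at 16.2 and 18.5 CPM against 16.9 and 17.4 CPM in the Baf250a KD and 22.6 and 27.2 CPM against 22.6 and 20.1 CPM in the Brd9 KD, and *Atp7a* at 56.2 and 49.1 CPM against 55.1 and 56.4 CPM and 34.1 and 32.5 CPM against 43.0 and 42.8 CPM. *Atp7a* was thus lower with Cu without overlap in the Baf180 and Brd9 KDs and overlapped in the Baf250a KD. Beyond *Nr4a1* the main fit did not separate the response of the Baf180 KD from those of the other 2 KDs. This does not show that they are alike. In an edgeR fit of only the 8 Cu and NT libraries of the Baf180 and Baf250a KDs, 181 genes differed. Of these, 53 were higher in the Baf180 KD and 128 lower, and 408 genes differed when all genes with 1 count or more were kept. The same 2 fits against the Brd9 KD gave 0 and 25.

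**Figure D5:**
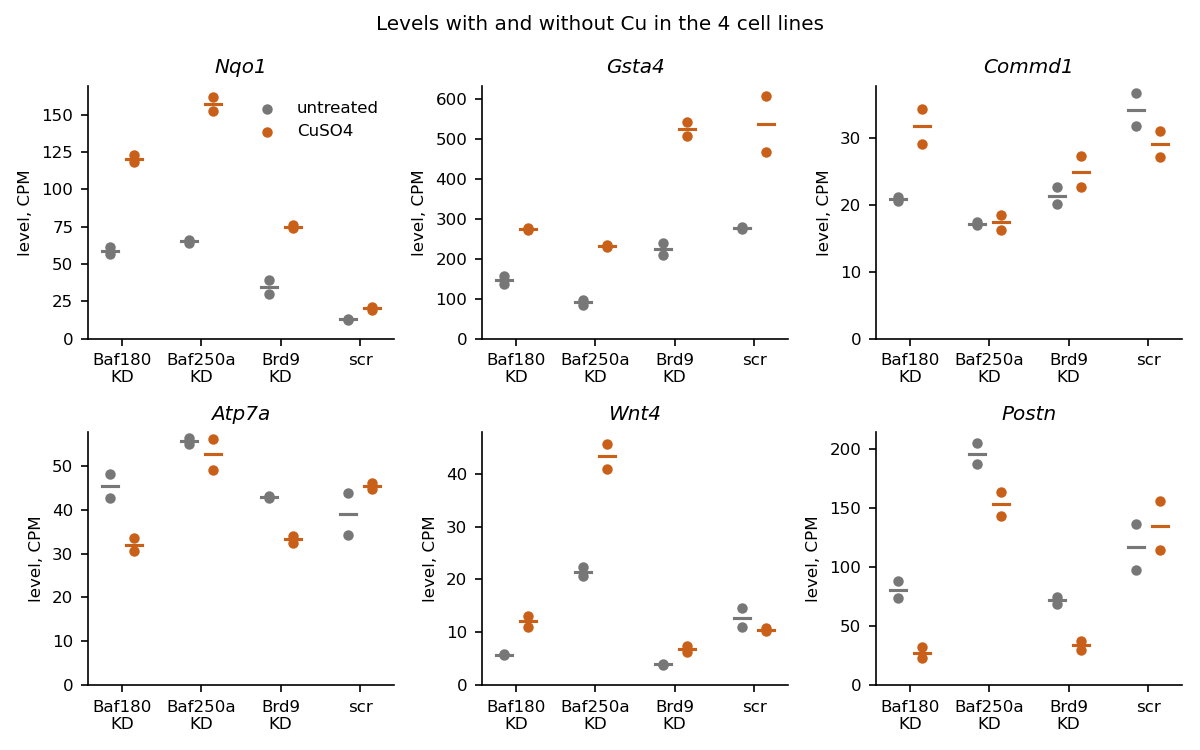
Level in CPM of *Nqo1*, *Gsta4*, *Commd1*, *Atp7a*, *Wnt4* and *Postn* with and without Cu in the 4 lines, each point 1 library and each dash the mean of 2. *Nqo1* and *Gsta4* are higher with Cu in every line, and *Postn* is lower with Cu in the 3 KD lines and overlaps in scr.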

How the data were processed

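Total RNA was depleted of ribosomal RNA with RNase H and made into stranded paired-end libraries. Reads were aligned with STAR (mm10 build), and the authors kept unique alignments and counted fragments per gene with featureCounts in the reverse-stranded mode. The deposited values are raw counts for 55291 gene symbols. Further deposited tables hold the authors' comparisons as fold changes and p-values and were not used here. From the counts, genes passing edgeR's expression filter in the 6 Baf180 KD libraries (15241) were fitted with TMM factors and tested by edgeR 4.0.16 (glmQLFTest, R 4.3.3), with Benjamini-Hochberg adjustment and a threshold of 0.05. The SE was taken from the fold change and its F statistic. Differences from other lines were interaction terms in a fit of all 24 libraries (16524 genes). The correction used, for each library, a natural spline with 5 degrees of freedom in GC content and in log length of GENCODE M21 transcripts, known for 15111 tested genes. DESeq2 1.42.0 was an alternative, beside other scalings, filters, a thinning of counts to the smallest library, a replicate block, and leaving out each library. Counts limit the precision of genes of a few CPM.

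The labels describe a transient transfection for the knockdown where the study describes transduced, selected cells. The members and gene lists were chosen with earlier results of these data known. Named were *Pbrm1*, genes named in the study's text, the copper handling genes and metallothioneins, the largest called rise and fall of each list (mean normalized count of at least 50, no overlap between the Cu and untreated libraries), the 6 largest rises and falls also called after the correction, and the 2 largest differences between lines in each direction. Other members of the lists were named to describe their roles, after their values were seen. Promoters were those of RefSeq (GRCm38.p6), found for 10250 of the tested genes.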

Additional observations from a re-analysis of the deposited data

Results flagged for a closer look

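The Cu response of the Baf180 KD was compared with that of each other line by a test of the difference itself, and the differences that passed it are listed here. From scr the response differed in 2116 genes, and from the Baf250a KD in 1.

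The small nucleolar RNA *Gm25835* had the response farthest above that of scr (2.85, adjusted p = 0.0369), with 7.80 and 4.75 CPM with Cu against 2.06 and 1.81 CPM untreated in the Baf180 KD. In scr it was at 3.02 and 8.81 CPM against 5.23 and 22.3 CPM. There the groups overlapped and the untreated libraries lay far apart. *mt-Rnr2*, the large mitochondrial ribosomal RNA, followed (2.67, adjusted p = 0.0416), with 20.97 and 29.78 CPM against 26.4 and 30.7 CPM in the KD and 37.8 and 23.9 CPM against 347 and 88.4 CPM in scr, so that the difference came from the untreated scr libraries. *Nhsl2* was farthest below scr (−3.06, adjusted p = 0.0364), with 1.34 and 1.77 CPM against 4.12 and 2.68 CPM in the KD. In scr it was near 0 in both groups, at 0.119 and 0.267 CPM against 0 and 0.0929 CPM. Within the KD alone its Cu response was −1.14 ± 0.29. *Depdc1a* was next (−2.01, adjusted p = 0.0428), with 2.23 and 4.99 CPM against 4.93 and 6.42 CPM in the KD, where the groups overlapped, and 1.78 and 6.16 CPM against 2.04 and 1.35 CPM in scr. *Nr4a1*, an immediate early nuclear receptor, had a response above that of the Baf250a KD (2.10, adjusted p = 0.0436), at 27.42 and 21.01 CPM against 16.04 and 15.44 CPM in the Baf180 KD. In the Baf250a KD it was at 16.1 and 14.1 CPM against 28.4 and 56.5 CPM, the untreated libraries lying far apart. Within the Baf180 KD alone its Cu response was 0.58 ± 0.14. The leave-outs for these counts are given with the limits.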

How the results depend on the processing

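With 2 libraries per group the calls rested on single libraries, and the correction for GC content removed most of them. The 2097 genes called with Cu were 3892 with the replicate block, 1684 with the block and the correction, 932 with the correction alone and 762 at 1.5-fold or more, and 57 to 2304 when 1 library was left out (109 to 878 with the correction as well, an alternative added after the data were seen). DESeq2 called 2308. The 51 genes that differed between Cu and Zn were 272 by DESeq2, 565 at 1 count or more, 104 at a mean of 1 or more, 20 in a fit of 4 libraries, 625 with the block, 145 with the correction, 331 with both, 29 at 1.5-fold or more and 108 in the fit of 24 libraries, and 3 to 43 with 1 library left out (8 to 207 with the correction as well). The 2116 differences from scr were 188 with the correction, 0 in a fit of 8 libraries and 1 to 3204 with 1 library left out. The 1 difference from the Baf250a KD was 53 by DESeq2, 408 at 1 count or more, 181 in a fit of 8 libraries and 0 with other size factors, the block or the correction, and 0 to 16 with 1 library left out. The difference from the Brd9 KD was 25 at 1 count or more and 0 in the other alternatives. *mt-Nd6*, at −0.47, ranged from −0.53 to 0.18 over the leave-outs, above 0 (0.16 and 0.18) in 2 of those with the correction, and no other named gene reversed a call (a change of sign where no value was called is not counted). The cause was not tested in any case. Replicate numbers were shared between groups, but with only 2 numbers (correlation of deviations 0.166 between Cu and NT, 0.182 between Cu and Zn and 0.315 between NT and Zn over 15241 genes) the pairing was not used. With the block *Mt2* was called with Cu (0.26, adjusted p = 0.0379), and *Atp7a* was called with the block and the correction (−0.35, adjusted p = 0.0221).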
